A study of Mus musculus with 8 samples.

Results

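The 10 genes H19, Mest, Peg3, Cdkn1c, Dlk1, Ndn, Snrpn, Plagl1, Grb10 and Meg3 are imprinted genes outside the insulin-like growth factor axis, and they were followed as log2 ratios between control and ethanol-exposed mouse neurospheres. The genes were chosen with earlier results of these data known. Their probes were then found by gene symbol in the platform's annotation, with no use of measured values. The rule found all 10 genes among 15094 annotated ones, with 15 of 21582 probes. Of these, 11 probes of 8 genes had a ratio on at least 3 arrays of each dye orientation and could be tested, against 15345 probes in all. That is 73.3% of the member probes and 71.1% of all probes. A further probe, annotated to both H19 and a second gene, was left unnamed.

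Neurospheres are balls of neural progenitors that grow in suspension, here taken from gestational day 12.5 mouse cortex. Controls and exposed cultures were expanded without serum in bFGF at 20 ng/ml, EGF at 20 ng/ml and LIF at 0.15 ng/ml, 3 factors that keep progenitors dividing. Exposed cultures also had ethanol at 320 mg/dl for 5 days before differentiation, which was begun in both groups by withdrawing EGF and LIF. For exposed cultures differentiation lasted 3 days with no ethanol present. The titles of all 8 arrays say that the neurospheres were differentiated in the presence of FGF. The labels give no strain, sex or number of embryos, and do not say which arrays hold separate cultures, so p-values measure the spread between arrays, which may be technical. Control and exposed RNA were hybridised together on 8 two-colour arrays, with exposed RNA in Cy3 on replicates 1 to 4 and in Cy5 on replicates 5 to 8.

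An imprinted gene is transcribed mainly from the copy inherited from one parent, because DNA methylation laid down in the egg or sperm is kept on a control region in every later cell division. Imprinted genes lie in clusters, and many act on growth, cell cycle exit and the neural lineage. In brain, Peg3, Ndn, Mest, Snrpn, Plagl1 and Dlk1 are read mainly from the paternal copy. H19, Meg3 and Cdkn1c are read mainly from the maternal copy. Grb10 is read from the paternal copy in neurons and from the maternal copy in most other tissues. The ratios do not tell the copies apart, so which copy was read in these neurospheres is not known. Prenatal ethanol has been studied as an influence on DNA methylation, and the comparison asks whether a difference from exposure during proliferation is present after differentiation.

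The sources do not say which channel was divided by which, so each log2 ratio was separated into a shared part, the mean of the 2 orientations, and a turning part, 0.5 times the Cy5 orientation's mean minus the Cy3 orientation's mean. If ratios were written as one condition over the other, the ethanol difference lies in the shared part. If they were written as one dye over the other, it lies in the turning part, and the part that is left holds the dye difference. No sign below therefore gives the direction of an ethanol difference. Array codes begin with a in the Cy3 orientation and with b in the Cy5 orientation. Any difference between the a and b arrays thus also lies in the turning part and cannot be told apart there. Ratios were centred on each array's median, and 75.4% to 87.1% of the probes per array had a computable ratio. Arrays of one orientation resembled each other more than arrays of opposite orientations (mean Pearson correlation across probes, which are not replicates, 0.293 and 0.211 within the orientations and -0.084 between them). The file holds no intensities, so levels of the genes, and of the markers that would define neural cells, could not be read.

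No member probe passed the threshold in either part, an adjusted p of 0.05 by limma over all 15345 probes. Of all probes, 0% passed in the shared part and 1.56% in the turning part. At an unadjusted p under 0.05, 2 of the 11 member probes stood out in the shared part, H19 and Mest, both positive. In the turning part 4 did, both Peg3 probes and 1 probe each of Grb10 and Meg3, all positive. Among all probes 13.9% had such a p in the shared part (4.88% on the positive side) and 13.8% in the turning part (8.69% on the positive side). Over the 11 probes the median shared part was -0.13, with 5 positive, and the median turning part was 0.29, with 7 positive. All tested probes had medians of -0.06 and 0.11, with 46.1% and 56.9% positive.

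**Figure D1:**
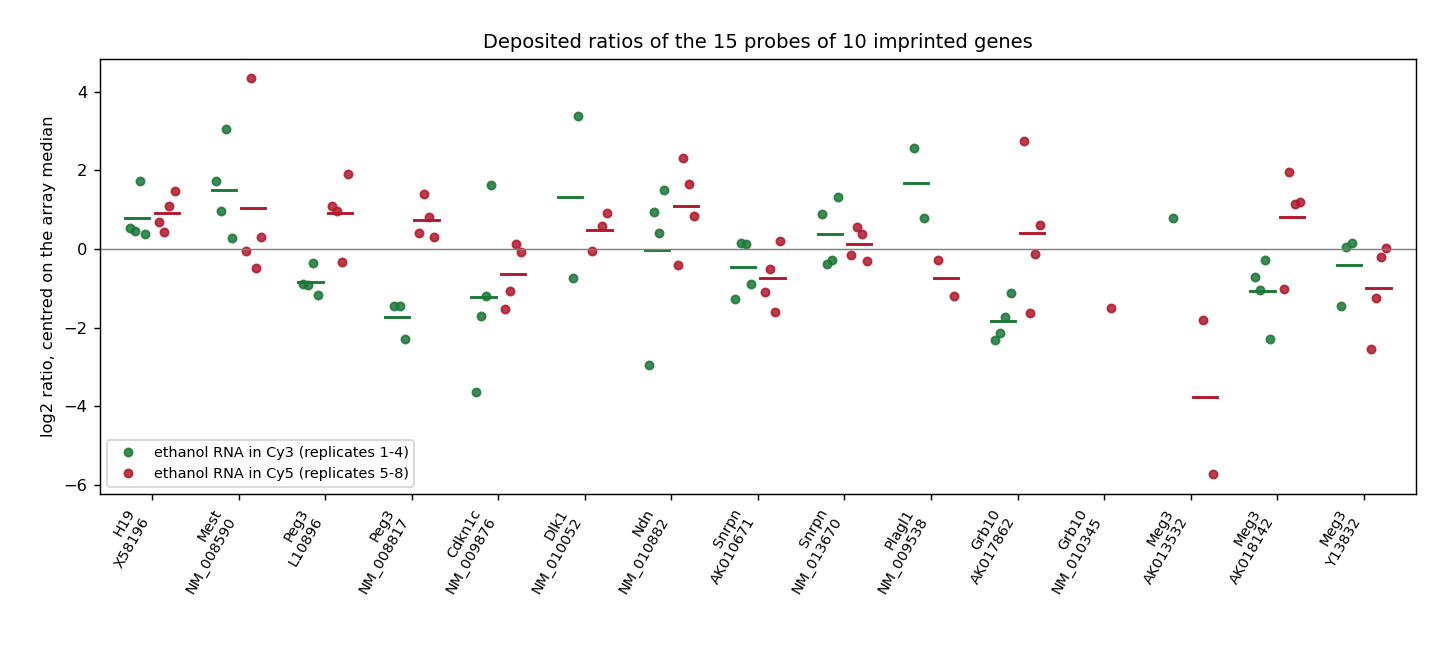
Log2 ratio, centred on the array median (vertical axis), of each of the 15 probes (horizontal axis) on every array that gave a ratio. Points are single arrays, green with ethanol RNA in Cy3 and red with ethanol RNA in Cy5, and bars are the means of an orientation with more than 1 value. All 8 points of H19 lie above 0, and the red points of both Peg3 probes lie above the green ones.

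H19 makes a long non-coding RNA from the maternal copy that restrains growth, and it shares enhancers and a methylated control region with the neighbouring growth factor gene Igf2. Its RNA is also the precursor of miR-675, whose mature forms are shown because they are the small RNAs that H19 carries, with the seed (bases 2 to 8) in capitals. The sequences are RefSeq's, in build GRCm38.p6.
mmu-miR-675-5p: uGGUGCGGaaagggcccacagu
mmu-miR-675-3p: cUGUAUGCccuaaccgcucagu

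The H19 probe X58196 read 0.53, 0.47, 1.73 and 0.39 on replicates 1 to 4, with ethanol RNA in Cy3. It read 0.69, 0.44, 1.10 and 1.47 on replicates 5 to 8, with ethanol RNA in Cy5. The probe, the only one annotated to H19 alone, was thus positive on 8 of 8 arrays, and the orientations overlapped. Of all tested probes 3.57% never changed sign between arrays, 1.82% being always positive, and H19 was the only one of the 11 member probes of which this held. The orientation means were 0.78 ± 0.64 and 0.92 ± 0.46 (SD, n = 4 arrays each). The shared part was 0.85 ± 0.30 (SE of the fit; 95% interval 0.19 to 1.51), a 1.80-fold ratio, which did not pass (limma, unadjusted p = 0.0168, adjusted p = 0.263). The turning part was 0.07 ± 0.30 (limma, adjusted p = 0.947), with a 95% interval of -0.59 to 0.73. Without replicate 3, the highest array, the shared part was 0.69, and without the arrays whose codes end in r (replicates 3, 4 and 8) it was 0.62.

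Igf2, which lies next to H19 and is read from the paternal copy in most tissues, had its larger value in the turning part. Its probe read 2.97, 4.00, 4.20 and 2.19 with ethanol RNA in Cy3 and -1.41, -1.70, -3.11 and -2.97 with ethanol RNA in Cy5. Every array of the first orientation was positive and every array of the other negative. The turning part of -2.82 ± 0.36 passed (limma, adjusted p = 0.0022), while the shared part of 0.52 ± 0.36 did not (limma, adjusted p = 0.530). Without the r arrays, or with only the 6 arrays whose code number occurs in both orientations, as a block, no probe of the other imprinted genes passed. Whether the neighbours differ in either part was not tested.

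Mest encodes a hydrolase-fold protein of mesoderm and growing tissues and is paternally expressed. One of its introns carries miR-335, shown for the same reason as miR-675, with the seed in capitals.
mmu-miR-335-5p: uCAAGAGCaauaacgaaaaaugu
mmu-miR-335-3p: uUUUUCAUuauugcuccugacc

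The Mest probe NM_008590 read 1.73, 0.97, 3.04 and 0.29 with ethanol RNA in Cy3. With ethanol RNA in Cy5 it read -0.04, 4.34, -0.49 and 0.32. Replicates 6 and 3 were the highest, and 6 of 8 arrays were positive. The shared part was 1.27 ± 0.55 (95% interval 0.05 to 2.49), the largest in size among the member probes, and did not pass (limma, unadjusted p = 0.0432, adjusted p = 0.343). Without replicate 6 it was 0.72, so a single array moved it by more than any other. The turning part was -0.24 ± 0.55 (limma, adjusted p = 0.893), and its sign changed with the values as deposited, to 0.08. The adjoining gene Copg2, which overlaps the end of Mest on the other strand, read -1.09 ± 1.05 in the shared part and 1.74 ± 1.05 in the turning part on 6 arrays, with values from -6.37 to 2.71 and no pass.

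Peg3 encodes a large zinc finger protein of the paternal copy that acts in maternal behaviour, fetal growth and the response of neurons to cell death signals. Both of its probes could be tested. Its start region is shown because the orientations of both probes did not overlap, and it holds the cyclic AMP response element TGACGTCA, in capitals, a sequence bound by CREB family factors. The stretch ends before the first annotated transcript start (chr7:6730463-6730669, minus strand, GRCm38.p6, RefSeq).
Peg3: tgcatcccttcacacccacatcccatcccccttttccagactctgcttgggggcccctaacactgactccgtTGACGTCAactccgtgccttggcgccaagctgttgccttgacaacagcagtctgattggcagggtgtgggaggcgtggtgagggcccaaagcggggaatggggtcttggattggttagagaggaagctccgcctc

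The Peg3 probe L10896 read -0.90, -0.91, -0.36 and -1.17 with ethanol RNA in Cy3 and 1.10, 0.96, -0.32 and 1.92 with ethanol RNA in Cy5. The probe NM_008817 had no ratio on replicate 1 and read -1.46, -1.45 and -2.29 on replicates 2 to 4. On replicates 5 to 8 it read 0.40, 1.41, 0.82 and 0.31. In both probes every array with ethanol RNA in Cy5 lay above every array with ethanol RNA in Cy3, although replicates 3 and 7 of L10896 lay close together. Of all tested probes 10.9% had orientations that did not overlap, 5.68% with the Cy5 orientation higher, and these 2 were the only ones among the 11 member probes. The orientation means were -0.83 ± 0.34 and 0.92 ± 0.93 (SD, n = 4 arrays each) for L10896. For NM_008817 they were -1.73 ± 0.49 (n = 3) and 0.73 ± 0.50 (n = 4).

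The turning part was 0.87 ± 0.32 (95% interval 0.16 to 1.58) for L10896 and 1.23 ± 0.32 (95% interval 0.50 to 1.96) for NM_008817. Neither passed over all probes (limma, unadjusted p = 0.0207 and 0.00407, adjusted p = 0.258 and 0.118). With the values as deposited, where the median turning part of all probes rises from 0.11 to 0.42, NM_008817 read 1.55 and passed (limma, adjusted p = 0.0410), while L10896 read 1.19 (limma, adjusted p = 0.101). The shared parts were 0.04 ± 0.32 and -0.50 ± 0.32 (limma, adjusted p = 0.963 and 0.511). The probes are annotated to the same gene, were read on the same arrays and are not replicates of the condition. Of Peg3's neighbours, the zinc finger gene Zim1 read 1.03 ± 0.55 in the shared part and -0.39 ± 0.55 in the turning part, neither passing, and Usp29 had ratios on only 3 arrays.

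Grb10 encodes an adaptor that binds the insulin and IGF1 receptors and holds back their signals. Its most upstream annotated start region is rich in CpGs, and it is shown with each CpG, the site that DNA methylation marks, in capitals (chr11:12037429-12037670, minus strand, GRCm38.p6, RefSeq).
Grb10: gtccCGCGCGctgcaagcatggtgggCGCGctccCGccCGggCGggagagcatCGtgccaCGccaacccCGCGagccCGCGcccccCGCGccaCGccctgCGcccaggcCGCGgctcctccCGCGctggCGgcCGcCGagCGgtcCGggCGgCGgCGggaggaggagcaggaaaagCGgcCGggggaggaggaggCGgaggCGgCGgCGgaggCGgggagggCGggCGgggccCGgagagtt

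The Grb10 probe AK017862 read -2.32, -2.13, -1.73 and -1.11 with ethanol RNA in Cy3. With ethanol RNA in Cy5 it read 2.74, -1.64, -0.12 and 0.62. The arrays of the first orientation lay close together, at a mean of -1.82 ± 0.53 (SD, n = 4 arrays), while those of the other spread widely, at 0.40 ± 1.82 (n = 4 arrays), and replicate 6 overlapped the first orientation. The turning part was 1.11 ± 0.45 (95% interval 0.12 to 2.11) and did not pass (limma, unadjusted p = 0.0319, adjusted p = 0.307). It was 0.72 without replicate 5 and 1.45 without replicate 6. The shared part was -0.71 ± 0.45 (limma, adjusted p = 0.496), -1.10 without replicate 5 and -0.37 without replicate 6. The second Grb10 probe, NM_010345, had a ratio on replicate 5 alone, at -1.504, where AK017862 read 2.74. Of the receptors that Grb10 binds, the insulin receptor gene Insr read 0.47 ± 0.50 in the shared part and -0.62 ± 0.50 in the turning part, neither passing. The one testable Igf1r probe read -2.33 ± 0.63 and 1.72 ± 0.63 (limma, adjusted p = 0.207 and 0.260). Other Igf1r probes, short of the limit of 3 arrays per orientation, did not read alike. M33422 was positive on all 5 arrays with a ratio, at 3.45 on replicate 7 where the testable probe read -4.08. AF056187 was positive on 3 of 6 arrays. Ddc, the amino acid decarboxylase gene next to Grb10, had ratios on 5 arrays, all positive, and with that limit lowered to 2 its shared part was 1.11 ± 0.53, which did not pass (limma, adjusted p = 0.445).

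Meg3 makes a maternally expressed long non-coding RNA from the same cluster as Dlk1, whose paternal copy encodes a membrane protein related to Notch ligands that is known in neural stem cell niches. The start region of Meg3 holds the same cyclic AMP response element as that of Peg3, in capitals (chr12:109540746-109540995, plus strand, GRCm38.p6, RefSeq).
Meg3: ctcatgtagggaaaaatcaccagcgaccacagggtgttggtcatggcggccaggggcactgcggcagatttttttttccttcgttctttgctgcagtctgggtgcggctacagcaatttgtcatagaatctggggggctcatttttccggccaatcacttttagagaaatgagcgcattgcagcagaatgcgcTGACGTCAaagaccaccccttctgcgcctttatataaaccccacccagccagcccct

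The Meg3 probe AK018142 read -0.70, -1.04, -0.27 and -2.28 with ethanol RNA in Cy3. With ethanol RNA in Cy5 it read -1.01, 1.96, 1.14 and 1.19. Replicate 5 lay among the arrays of the other orientation and the other 3 above all of them. The turning part was 0.95 ± 0.39 (95% interval 0.07 to 1.82), without a pass (limma, unadjusted p = 0.0363, adjusted p = 0.321). It was 1.25 without replicate 5 and 0.75 without replicate 4. The shared part was -0.13 ± 0.39 (limma, adjusted p = 0.907).

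Other Meg3 probes did not show that pattern. The probe Y13832 had no ratio on replicate 4 and read -1.45, 0.05 and 0.15 on replicates 1 to 3 and -2.55, -1.25, -0.20 and 0.02 on replicates 5 to 8, and its orientations overlapped. Its turning part was -0.29 ± 0.42 and its shared part -0.71 ± 0.42 (limma, adjusted p = 0.815 and 0.480), the latter -0.45 without replicate 5. The probe AK013532 had ratios on 3 arrays only, 0.79 on replicate 2, -1.81 on replicate 6 and -5.73 on replicate 8, and could not be tested. Meg3's 3 probes therefore disagree, and the annotation does not say which transcript forms each of them detects. The difference between the probes was not tested.

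Dlk1 itself was short of the limit of 3 arrays per orientation. Its probe NM_010052 read -0.74 and 3.37 on replicates 3 and 4 and -0.06, 0.59 and 0.92 on replicates 5, 7 and 8, with no ratio on the other arrays. With the limit lowered to 2 arrays the shared part was 0.90 ± 0.66 and the turning part -0.42 ± 0.66, neither passing (limma, adjusted p = 0.606 and 0.843). Further genes of the cluster make non-coding RNAs from the maternal copy. Rian read 0.04 ± 0.36 in the shared part and -0.32 ± 0.36 in the turning part. Mirg read -1.59 ± 0.45 and 0.91 ± 0.45 (limma, adjusted p = 0.228 and 0.422), with the arrays of the Cy3 orientation between -4.01 and -0.65 and the others between -1.51 and 0.08. The receptors Notch1 and Notch2 read -0.39 ± 0.50 and -1.36 ± 1.05 in the shared part and -0.04 ± 0.50 and -1.37 ± 1.05 in the turning part, none passing. Notch2 had 1 array at -10.15.

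Cdkn1c encodes p57, an inhibitor of cyclin-dependent kinases that lets neural progenitors leave the cell cycle. Its probe NM_009876 read -3.64, -1.69, -1.21 and 1.64 with ethanol RNA in Cy3 and -1.54, -1.07, 0.12 and -0.08 with ethanol RNA in Cy5. It was negative on 6 of 8 arrays, and replicates 1 and 4 of the same orientation were the lowest and the highest. The shared part was -0.93 ± 0.52 (95% interval -2.08 to 0.21), the most negative among the member probes, and did not pass (limma, unadjusted p = 0.0998, adjusted p = 0.447). Without replicate 4 it was -1.41, without replicate 1 it was -0.53 and without the r arrays -1.75. The turning part was 0.29 ± 0.52 (limma, adjusted p = 0.851). The kinase gene Cdk2 and the cyclin gene Ccne1, whose products p57 holds in check, had shared parts of the other sign, 1.34 ± 0.31 and 1.19 ± 0.38 (limma, adjusted p = 0.171 and 0.235). Cdk2 was positive on 8 of 8 arrays, and 1.82% of all tested probes were positive on every array with a value. None of these 3 genes passed, and no test compared them. Of the 23 tested probes of partners and targets of the members, 16 were positive in the shared part.

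Elsewhere in Cdkn1c's cluster, the potassium channel gene Kcnq1 had 2 testable probes, at -2.07 ± 0.69 and -0.65 ± 0.51 in the shared part (limma, adjusted p = 0.250 and 0.584). Their arrays ran from -5.56 to 0.75 and from -2.52 to 1.36. The trophoblast factor gene Ascl2 read -1.86 ± 0.68 (limma, adjusted p = 0.275), with arrays from -5.03 to 0.85. The growth-limiting gene Phlda2 read -0.18 ± 0.41. Tssc4 and Tnfrsf23 read -0.002 ± 0.39 and -0.002 ± 0.34 in the shared part, and Cd81 and Osbpl5 -0.29 ± 0.50 and -0.36 ± 0.43. Among these, only the probe NM_008672 of the histone chaperone gene Nap1l4 had orientations that did not overlap, as 10.9% of all tested probes had. It read between 0.34 and 0.58 with ethanol RNA in Cy3 and between -1.27 and -0.54 in Cy5. Its turning part of -0.65 ± 0.27 did not pass (limma, adjusted p = 0.313). Another Nap1l4 probe, AK013067, was positive on all 4 arrays with a ratio. On replicates 7 and 8 it read 0.60 and 0.285, where NM_008672 read -1.27 and -0.56.

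Ndn and Snrpn belong to the cluster whose human counterpart is deleted in Prader-Willi syndrome, and both are paternally expressed. Ndn encodes necdin, a protein of postmitotic neurons that binds E2F1 and the neurotrophin receptor p75. Its probe NM_010882 read -2.95, 0.93, 0.42 and 1.498 with ethanol RNA in Cy3 and -0.41, 2.31, 1.64 and 0.83 with ethanol RNA in Cy5. Replicates 1 and 5 were negative and the other 6 arrays positive. The shared part was 0.53 ± 0.51 (95% interval -0.61 to 1.68) and the turning part 0.56 ± 0.51 (limma, adjusted p = 0.669 and 0.699). Without replicate 1 the shared part was 1.02 and the turning part 0.07, and without replicate 4 they were 0.28 and 0.81, so single arrays moved both widely. E2f1 read 0.93 ± 0.44 and 0.83 ± 0.44, and the p75 gene Ngfr -0.95 ± 0.38 and 0.30 ± 0.38, none passing.

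Snrpn encodes a neuronal relative of the Sm proteins of spliceosomal particles. Its probe AK010671 ranged from -1.26 to 0.14 with ethanol RNA in Cy3 and from -1.59 to 0.20 in Cy5, and NM_013670 from -0.38 to 1.32 and from -0.30 to 0.56. The shared parts were -0.61 ± 0.33 and 0.25 ± 0.31, of opposite sign (limma, adjusted p = 0.433 and 0.746), and the turning parts -0.14 ± 0.33 and -0.13 ± 0.31 (limma, adjusted p = 0.895 and 0.896). The 95% intervals of the turning parts ran from -0.87 to 0.59 and from -0.83 to 0.56. Snurf, which is read from the same transcript upstream of Snrpn, read 0.36 ± 0.35 and 0.01 ± 0.35. The cluster's ubiquitin ligase gene Ube3a, maternal in neurons, had a shared part of 1.63 ± 0.64 on 7 arrays (limma, adjusted p = 0.313), and the zinc finger gene Mkrn3 read -0.36 ± 0.38.

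Plagl1 encodes a zinc finger regulator that arrests growth and acts on several other imprinted genes. Its probe NM_009538 had ratios on 4 arrays, 2.56 and 0.79 on replicates 2 and 4 and -0.28 and -1.20 on replicates 5 and 8. The values of the first orientation lay above those of the second, with 2 arrays a side, short of the limit of 3. The 0.79 on replicate 4 recurred on that array for several other probes with few ratios, and is thus not particular to Plagl1. With the limit lowered to 2 arrays per orientation (18888 probes) the shared part was 0.47 ± 0.58 and the turning part -1.21 ± 0.58, and neither passed (limma, adjusted p = 0.778 and 0.451).

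**Figure D2:**
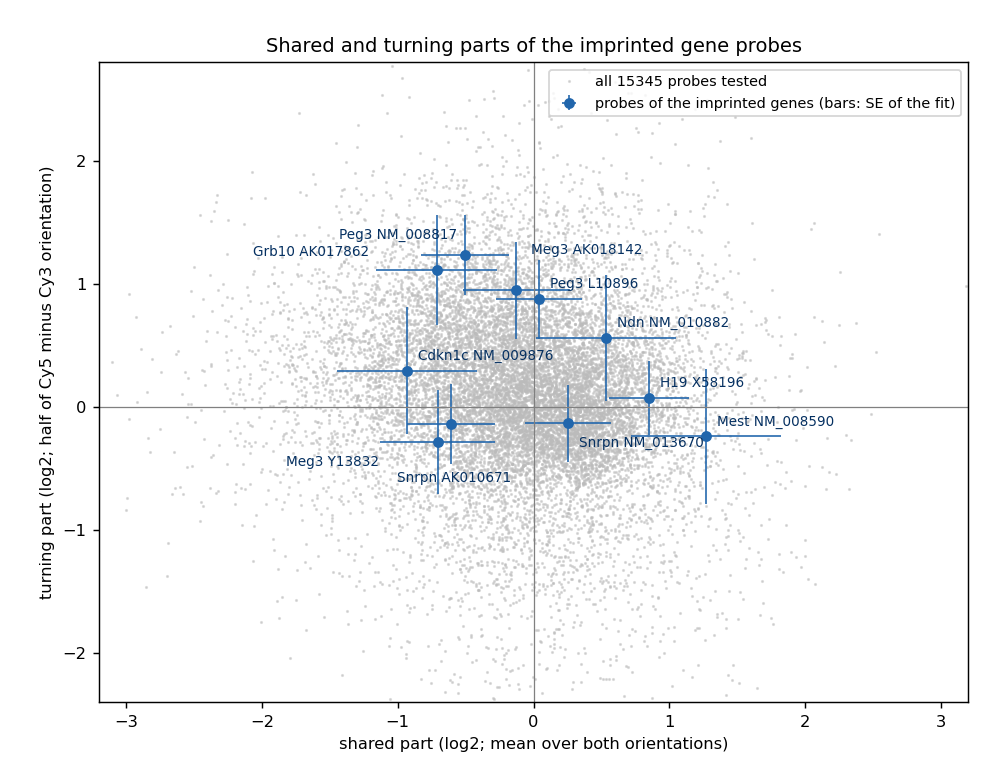
Shared part (horizontal axis) against turning part (vertical axis) of the 11 tested member probes (blue, bars are SEs of the fit) over all 15345 tested probes (grey; those beyond the axes are not drawn), both on the log2 scale. H19 and Mest lie to the right near a turning part of 0, and Peg3, Grb10 and one Meg3 probe lie above.

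Set side by side, H19 and Mest had turning parts of 0.07 and -0.24, and both Peg3 probes, the Grb10 probe and the Meg3 probe AK018142 had shared parts between -0.71 and 0.04. Which of the parts holds the ethanol difference and which the dye's cannot be told apart here. Nor can a difference between the a and b arrays be told from the rest of the turning part.

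The other imprinted genes, from a list of 56 of which 42 were on the array, gave 37 tested probes of 34 genes. In the shared part none passed, 1 had an unadjusted p under 0.05 on the positive side and 3 on the negative side, and 10 of 37 were positive, with a median of -0.20. Those 4 probes belong to Ube3a, Mirg, Kcnq1 and Ascl2, and the next by p were Asb4 at -0.73 ± 0.34 and Zim1. In the turning part 24 of 37 were positive with a median of 0.07, and Igf2 passed on the negative side. At an unadjusted p under 0.05 there were 3 positive probes and 2 negative ones. The positive ones were Trappc9, of a vesicle tethering complex, at 0.92 ± 0.30, Commd1, a copper and NF-kappa-B regulator, at 1.15 ± 0.41, and Asb4, a ubiquitin ligase adaptor, at 0.81 ± 0.34 (limma, adjusted p = 0.204, 0.251 and 0.331). The negative ones were Igf2 and Nap1l4, followed by the protease inhibitor gene Tfpi2 at -1.29 ± 0.58. Of all probes, 4.88% had such a p on the positive side and 9.01% on the negative side in the shared part, and 8.69% and 5.14% in the turning part.

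**Figure D3:**
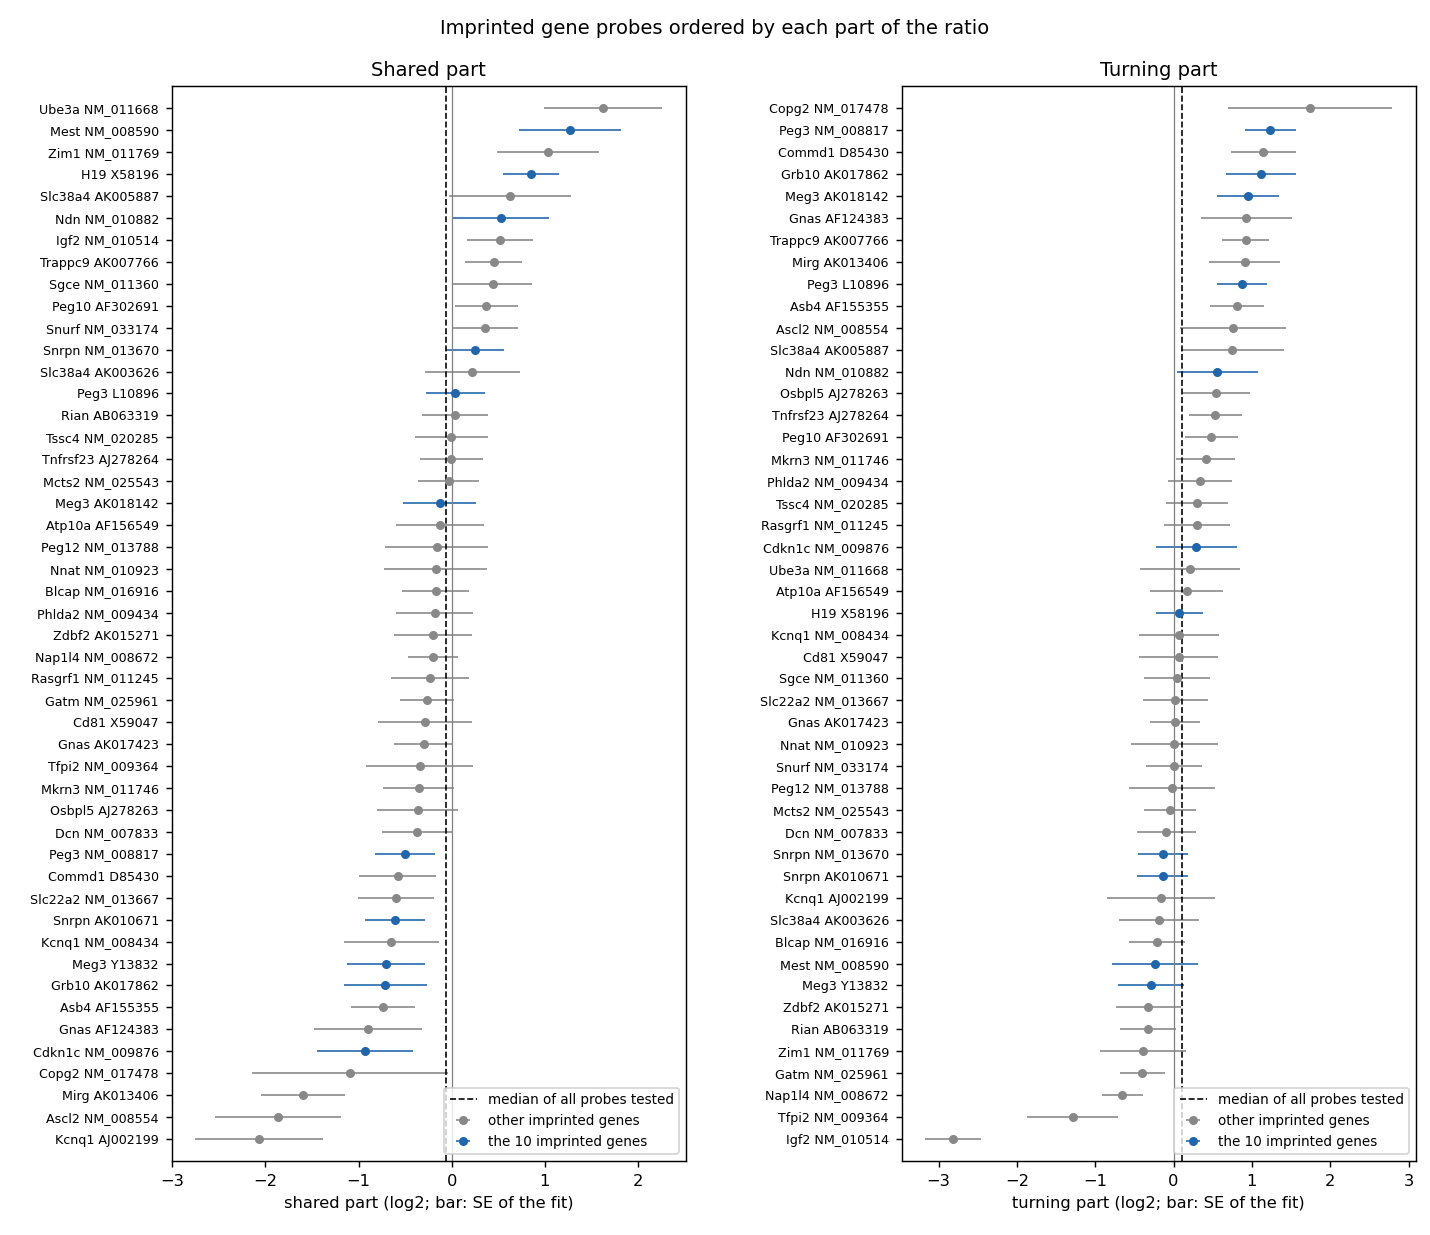
The 11 member probes (blue) and the 37 probes of other imprinted genes (grey), ordered by shared part (left) and by turning part (right), on the log2 scale with SEs of the fit. The dashed line is the median of all tested probes, -0.06 and 0.11. Igf2 lies apart at -2.82 in the turning part, while member probes are spread over both orders.

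Genes that set or keep imprints were read in 15 tested probes of 14 genes. Their medians were -0.48 in the shared part, with 5 positive, and 0.33 in the turning part, with 8 positive. The genes named here were chosen after their values were seen. Of all tested probes 1.82% were positive on every array with a value. The maintenance methyltransferase gene Dnmt1 had one probe positive on 8 of 8 arrays, at 0.94 ± 0.35 (limma, adjusted p = 0.292), and another at -0.48 ± 0.57. Trim28, the corepressor that holds methylation at control regions, was also positive on 8 of 8 arrays, at 0.59 ± 0.27, and the NuRD subunit gene Mbd3 read 0.65 ± 0.29, on 7 of 8 arrays positive (limma, adjusted p = 0.367 and 0.351). Zfp57 and Zfp445, zinc finger proteins that bind control regions, read -1.16 ± 0.54 and -2.93 ± 0.73 (limma, adjusted p = 0.376 and 0.182), and the CTCF gene -0.70 ± 0.45. The Polycomb subunit gene Eed was the only one that passed, in the turning part, at 2.28 ± 0.40 (limma, adjusted p = 0.0185). It read between -3.53 and -2.32 with ethanol RNA in Cy3 and between 0.26 and 3.54 in Cy5. Of all tested probes 1.56% passed in the turning part.

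Partners and targets of the members were read in 23 tested probes of 22 genes, of which none passed in either part. Their medians were 0.42 in the shared part, with 16 positive, and 0.00 in the turning part, with 12 positive. Over all tested probes the medians were -0.06 and 0.11, with 46.1% and 56.9% positive. The largest positive shared part of the list was that of the cyclin gene Ccnd1, at 1.98 ± 0.60 (limma, adjusted p = 0.231).

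Markers of other cell types are set beside the members. In the shared part, where H19 and Mest were positive, markers of meningeal fibroblasts had a median of -0.21 (1 of 4 tested probes positive), endothelial and mural markers -0.14 (2 of 6), neuronal markers -0.11 (2 of 6), astrocyte markers -0.84 (1 of 8), oligodendrocyte lineage markers -0.16 (4 of 8), markers of microglia and macrophages -0.19 (2 of 4), erythroid markers 0.31 (2 of 3) and neural progenitor markers 0.47 (7 of 10). In the turning part, where Peg3, Grb10 and a Meg3 probe were positive, markers of microglia and macrophages had a median of 0.63 (3 of 4), erythroid markers 0.35 (3 of 3), oligodendrocyte lineage markers 0.25 (6 of 8) and neuronal markers 0.08 (3 of 6). Progenitor, astrocyte, meningeal and endothelial markers had medians of -0.07, -0.40, -0.08 and 0.00 there, with 3 of 10, 2 of 8, 1 of 4 and 3 of 6 positive. No marker probe passed over all probes, and the part of cell makeup in the members' ratios was not tested.

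The CpG content of the members' start regions varied. Of the 10 genes 8 had a window in RefSeq's table, 15 windows in all, each from 250 bases before to 50 after an annotated start. The 300-base window of Grb10 shown above held 45 CpGs and its other window 9. For Meg3 the window shown held 13 and the other 1. The window of Plagl1 held 26, that of Peg3 13 and that of Ndn 11, while the 4 Snrpn windows held 2 to 7. All 32851 windows of the table had a median of 7, and 10 of the 15 member windows were above it. The element TGACGTCA, which reads the same on both strands, was in 1.79% of all windows and in the Peg3 and first Meg3 windows. It was one of 4 motifs searched on both strands. The TATA box, spelled TATAAA, was in 13.6% of all windows. The CCAAT box, spelled CCAAT, was in 37.4%, and the GC box, spelled GGGCGG, in 35.7%. A match describes the letters of the window and is neither a site nor a cause.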

How the data were processed

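Two-colour arrays of 21582 probes compared control and ethanol-exposed RNA, 1 µg per labelling with a dendrimer kit per the labels' protocols. The file holds the log2 ratios the authors deposited, with scanner, background correction, normalization and direction not given in the sources used here. On each array, ratios under 0.1 fell on a grid of 3 decimals once a constant was taken off (100% within 0.0011 on the log2 scale). Exact zeros (2565 to 5200 per array) and the array's highest value (108 to 464 probes) were taken as missing. Array medians ran from -0.435 to 0.516 and were subtracted. No column was left unused.

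Probes with at least 3 values per orientation were fitted with limma 3.58.1 (lmFit, eBayes; R 4.3.3) for the 2 parts, with Benjamini-Hochberg adjustment over all probes at 0.05. The code was tested on simulated data. Annotation symbols were updated by Entrez number through a GRCm38.p6 table (15957 of 16635 probes with 1 symbol matched). Members and lists were chosen with earlier results of these data known. All member probes are named. Of other lists, at most 6 genes per part by p are named, besides set partners of members. Some genes were added after their values were seen. These are cluster neighbours (Rian, Phlda2, Tssc4, Tnfrsf23, Cd81, Osbpl5, Snurf, Mkrn3, Copg2, Ddc, Usp29), E2f1 and Ngfr, and the imprint regulators. Alternatives are in the closing section. The number of arrays limits the precision.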

Additional observations from a re-analysis of the deposited data

Results flagged for a closer look

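The H19 probe X58196 stood at 1.73 on replicate 3, far from the range of 0.39 to 0.53 that replicates 1, 2 and 4 of that orientation gave. The Mest probe NM_008590 stood at 4.34 on replicate 6, far from the range of -0.49 to 0.32 of replicates 5, 7 and 8. Of 20 sets of 4 arrays that were examined 2 stood out in this way, where chance gives about 1. Replicate 3 was also the higher of the first set for Mest, at 3.04.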

How the results depend on the processing

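Every value in either part of the 11 member probes stayed short of the threshold under all alternatives run, except that Peg3 NM_008817 passed in the turning part with the values as deposited. With those values 1 member probe and 417 of all probes passed in the turning part, 74.8% of them positive, against 239 and 49.4% after centring, and some small values changed sign: the turning parts of Mest (0.0786), both Snrpn probes (0.18 for each) and Meg3 Y13832 (0.0369), and the shared part of Peg3 L10896 (-0.0072). Without the r arrays 73 of all probes and 0 other imprinted gene probes passed, and Peg3 L10896 read -0.16 in the shared part and Snrpn NM_013670 0.0007 in the turning part. Leaving out 1 array at a time, 152 to 214 of all probes passed in the turning part, 0 in the shared part, 0 member probes and 1 other imprinted gene probe (Igf2). Small values that changed sign ranged, over these, from -0.0197 to 0.2302 (H19 turning), -0.79 to 0.016 (Mest turning), -0.13 to 0.25 (Peg3 L10896 shared), -0.11 to 0.77 (Cdkn1c turning), -0.26 to 0.0209 (Snrpn NM_013670 turning) and -0.32 to 0.18 (Meg3 AK018142 shared). The cause of these changes was not tested. Equal spread of the arrays, other limits on missing ratios, the rounding floor, a block for arrays of one code number (correlation 0.0089) and robust moderation changed no sign and no call of a member. Peg3 NM_008817 could not be fitted on all 8 arrays, without the r arrays, or without replicate 2, 3 or 4, and Meg3 Y13832 not on all 8 arrays or without replicate 1, 2 or 3, for want of values. The orientations share no replicate number but share 3 array code numbers, which the labels do not explain. Deviations of same-coded arrays correlated at -0.035 to 0.040 over 10486 probes. This does not settle whether they are pairs, because noise of single arrays can hide what a pair shares. The sign to look for also depends on the direction of the ratios, which is not known. The same-coded arrays were not taken as pairs in the main fit. A fit of these 6 arrays with the code as a fixed block, added after seeing the data, let 85 of all probes pass in the turning part, 0 in the shared part, 0 member probes and 0 other imprinted gene probes, and changed no sign of a member it could fit.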
